A study of Homo sapiens with 9 samples.

Results

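The clustered histone genes encode the histones that package new DNA, and 52 of them were followed in SKOV-3 cells on gels of different stiffness. They were chosen by name and by measured counts. The gene table holds 36343 genes, of which 73 have a symbol that starts HIST1H, HIST2H, HIST3H or HIST4H, and the 52 with at least 10 raw counts summed over the 9 libraries were kept. The count sum is the measured value that chose the members, and it uses no comparison between gels. HIST1H2BM, HIST1H4A and HIST2H4A stood just inside the threshold with 10 counts each, and HIST1H4B and HIST1H4D just outside with 9 each. The members comprise 5 genes for linker histone H1, 10 for H2A, 17 for H2B, 10 for H3 and 10 for H4. On hg38, 40 lie on chromosome 6, 11 on chromosome 1 and 1, HIST4H4, on chromosome 12. HIST1H1PS1, HIST1H3PS1 and HIST2H2BD are annotated as pseudogenes in GENCODE v29.

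SKOV-3 is an established human epithelial ovarian cancer line. Hydrogels of 0.5, 4 or 25 kPa carried its cells through 3 days of culture, with 3 libraries per gel (replicates 1, 2 and 3 on 0.5 and 4 kPa, and 2, 3 and 4 on 25 kPa), and all cells were otherwise treated alike as far as the labels say. The question is how the level of these genes differed with the stiffness under the cells. The sources do not say whether libraries of the same gel are separate cultures, so p-values measure only the spread between these libraries.

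Most clustered histone genes have no introns and are switched on as DNA is copied. Their mRNAs end in a short stem-loop in place of a poly(A) tail. The stem-loop-binding protein SLBP holds that structure, and the coactivator NPAT drives transcription of the clusters. Some of these genes also give longer, polyadenylated mRNAs. The libraries here were made from poly(A)-selected RNA, so the counts are not a measure of total histone mRNA.

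The stem-loop is shown first because an mRNA that ends at it has no poly(A) tail for the selection to hold. A match in a gene model does not say which mRNA form was counted. An exact match to its consensus was found in GENCODE v29 transcripts of 27 members, in 5 forms, and in 40 of all 58676 genes (0.0682%). One example of each form follows as a window of GRCh38, with the stem-loop in capitals. HIST1H2AC lies at chr6:26124662-26124691 on the plus strand and its form is shared by 14 members. HIST1H4H (chr6:26285124-26285153, minus strand) has the form of 4 members, all for H4, and HIST1H2BD (chr6:26158580-26158609, plus strand) that of another 4. HIST1H4I (chr6:27139647-27139676, plus strand) has the form of 3 members, and HIST1H2AG (chr6:27133508-27133537, plus strand) that of 2.
HIST1H2AC: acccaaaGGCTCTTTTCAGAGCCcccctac
HIST1H4H: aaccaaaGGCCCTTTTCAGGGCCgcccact
HIST1H2BD: tcccaaaGGCTCTTTTAAGAGCCacgcatg
HIST1H4I: ctaaaaaGGCCCTTTTTAGGGCCcctaagc
HIST1H2AG: aaccaacGGCTCTTTTCAGGGCCacccacg

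In 21 of these 27 members the annotated transcript went on for 100 bases or more past the stem-loop, and in 14 of the 21 the stretch after it held the letters AATAAA, the usual signal for poly(A) addition. The HIST1H2AC transcript went on for 1128 bases and that of HIST1H2AG for 1761. In the other 6 the transcript ended within 100 bases of the stem-loop, as in HIST1H2AE with 51 bases, and 2 of these 6 (HIST1H2BD and HIST2H2AA3) also held AATAAA after it. HIST1H2BD has 2 annotated transcripts. No match was found in 17 members whose models have no untranslated region and in 7 whose models have one, HIST1H4C among them. HIST2H2BC has no entry in GENCODE v29. No match says only that these letters are not in the annotated model.

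The members differed widely in level. FPKM, the count scaled to sequencing depth and per kilobase of transcript length, lets genes be compared. HIST1H2BK, an H2B gene, had the highest mean over the 9 libraries (28.8 FPKM). HIST1H1C, for a linker histone that binds DNA between nucleosomes, followed with 13.5, HIST3H2A with 10.3, HIST1H4C with 9.88 and HIST1H2AC with 7.12. HIST1H2BD had 3.70 FPKM, and HIST1H3H, for a core H3, had 1.45. HIST1H4I had 1.41, HIST1H2BC 1.40 and HIST2H2BE 1.37. The lengths behind these FPKM values were those of the coding sequence alone in some genes (381 bases in HIST1H2BK and 642 in HIST1H1C) and of long models in others (2195 in HIST2H2BE), so FPKM sets a short model above a long one at the same count.

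In counts, HIST1H2AC led with 2167 over all libraries, then HIST1H2BK with 1999, HIST3H2A with 1683 and HIST1H1C with 1584. These 4 genes held 56.6% of the 13141 counts of all members. Genes for H2A held 34.4% of the counts and those for H2B 33.2%. H1 genes held 12.9%, H4 genes 12.7% and H3 genes 6.78%. The 30 members with too few counts for the test (10 to 79 each) held 6.77%.

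**Figure D1:**
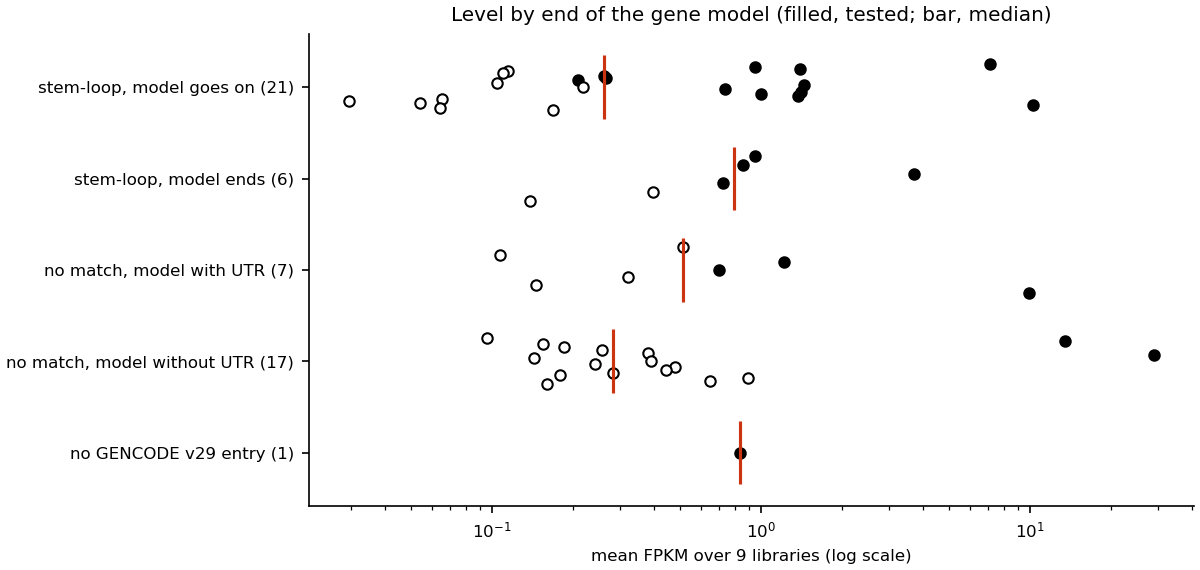
Mean FPKM over the 9 libraries (log scale) of the 52 members, set out by how the GENCODE v29 gene model ends, with filled points for tested members and a bar at each median. The medians lie between 0.26 and 0.84 FPKM, and HIST1H2BK, at 28.8 FPKM, stands among the members with no match and no untranslated region.

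The plot of FPKM by gene model shows that levels spread widely within each kind of model that has several members. The 21 members whose transcripts go on past the stem-loop ranged from 0.0294 to 10.3 FPKM (median 0.26), and 12 of them had enough counts to be tested. The 6 that end near it ranged from 0.139 to 3.70 (median 0.793). The 17 with no match and no untranslated region ranged from 0.0958 to 28.8 (median 0.282), and 2 of them, HIST1H2BK and HIST1H1C, were tested. Model lengths, by which FPKM divides, differ between the kinds, so these medians do not compare like with like. In counts over all libraries the medians of these kinds were 90, 71.5 and 21, in the same order.

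Many H2A and H2B genes lie head to head, with their starts close by, and 10 such pairs of members were found with any class of histone. Both genes were tested in 4 of them. In the pair HIST1H2BC and HIST1H2AC, the starts lie 219 bases apart, and the levels were 1.40 and 7.12 FPKM (213 and 2167 counts). HIST3H2A had 10.3 FPKM and its partner HIST3H2BB 0.0643, with 234 bases between the starts. HIST1H2BK had 28.8 FPKM and its partner HIST1H2AH 0.186. HIST1H2BJ and HIST1H2AG had 1.22 and 0.95 FPKM. In counts the order was reversed, at 211 and 390, on model lengths of 950 and 2251 bases.

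The region between the starts of HIST1H2BC (minus strand) and HIST1H2AC (plus strand) is shown because both genes read away from it, at chr6:26123927-26124144, plus strand, from the RefSeq promoter table for GRCh38.p14. Capitals mark the CCAAT box (letters CCAAT) and the octamer (letters ATTTGCAT), searched on both strands.
HIST1H2BC and HIST1H2AC: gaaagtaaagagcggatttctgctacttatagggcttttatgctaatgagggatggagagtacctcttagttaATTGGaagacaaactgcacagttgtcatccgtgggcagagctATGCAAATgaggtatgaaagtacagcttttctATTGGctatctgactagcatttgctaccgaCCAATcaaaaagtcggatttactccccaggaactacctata

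It holds 1 octamer on the minus strand, and the CCAAT box stands once on the plus strand and at 2 places on the minus strand. The region runs between the starts of the counted genes. Its closing letters, tata, begin a TATA box (letters TATAAA) that runs on past its end. The promoter windows described next hold that box in full for both genes. Promoter windows of 300 bases (250 before the RefSeq start and 50 after it) were found for 43 members. The CCAAT box was in 36 of 43 (83.7%, against 34.6% of all 35116 promoters). Among the 8 promoters of H4 genes 1 held it, and it was in every promoter of the other classes. The octamer was in 17 of 43 (39.5%, against 1.80% of all), 6 of 9 for H2A and 11 of 15 for H2B, and in none of those for H1, H3 and H4. The TATA box (letters TATAAA) was in 27 of 43 (62.8%, against 11.5% of all). These are matches of letters in a window, not shown sites of binding.

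Depth was 19609740 to 21033433 counts per library and hardly differed between gels. CPM below is the count scaled to a common library size after TMM normalization. The replicate 3 libraries on 0.5 and 4 kPa stood apart from their gels: their counts differed from those of the other replicates by 11.8 to 21.8 times sampling noise, measured as chi-square over its degrees of freedom, against 2.87 to 10.8 for the other pairs. Mitochondrial genes took 5.21 to 5.74% of counts on 0.5 kPa, 3.99 to 4.41% on 4 kPa and 4.15 to 4.60% on 25 kPa. MALAT1, a nuclear noncoding RNA, took 0.34 to 0.40%, 0.13 to 0.22% and 0.13 to 0.15%. The labelled line was checked by 10 markers of SKOV-3, which summed to 7320 to 7910 CPM over all libraries, with ERBB2 at 2920 to 4290 and PAX8 at 184 to 231 CPM. Of the 10, 1 was higher (ERBB2) and 2 lower (KRT7 and CD24) on 0.5 than on 25 kPa. Markers of MCF-7, another cancer line, summed to 426 to 475 CPM on 0.5 kPa, to 389 to 411 CPM on 4 kPa and to 350 to 354 CPM on 25 kPa, mostly CA12, XBP1 and ESR1, and 3 of the 6 tested (ESR1, CA12 and GREB1) were higher on 0.5 than on 25 kPa. Levels differed widely among the listed MCF-7 markers. ESR1 stood at 60.3 to 94.9 CPM, XBP1 at 111 to 161 CPM and CA12 at 149 to 243 CPM. GREB1, FOXA1 and PGR had 1076, 753 and 158 counts in all 9 libraries, and AGR2, GATA3 and TFF1 had 44, 7 and 2. Fibroblast markers summed to 57.4 to 69.2 CPM on 0.5 kPa, 60.5 to 66.4 CPM on 4 kPa and 56.2 to 60.1 CPM on 25 kPa, with 2 of 6 tested higher and 1 lower on 0.5 than on 25 kPa. Most of that sum was COL1A1 (32.6 to 43.1 CPM), COL1A2 (8.91 to 13.0 CPM) and LUM (6.88 to 10.7 CPM), while DCN and FAP had 8 and 10 counts in all. Leukocyte markers summed to 0.147 to 0.688 CPM, none was tested and CD3E was at 0.

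The first comparison asked whether members differed between the softest and the stiffest gel. Of the 22 members with enough counts, 0 passed edgeR's quasi-likelihood test at an adjusted p below 0.05 between 0.5 and 25 kPa, against 6.69% of all 16335 genes tested. At an unadjusted p below 0.05 there were 2 of 22, HIST1H4C and HIST1H2BK, against 3733 of all 16335 genes tested. DESeq2 called 1 and limma on FPKM 0. The tested members split into 13 with a fold change above 0 and 9 below, with a median log2 fold change (softer minus stiffer gel) of 0.08, against 0.00 for all genes tested. Standard errors of single members were 0.11 to 0.61. At this depth only large differences could be told from the spread for most members, and a p that misses the threshold does not show that levels were alike.

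HIST1H4C, one of the genes for histone H4, came nearest to the threshold. On 0.5 kPa its level was 7.15, 5.57 and 4.55 CPM in replicates 1, 2 and 3. On 4 kPa it was 3.65, 3.04 and 4.15 CPM, and on 25 kPa 3.97, 2.69 and 3.93 CPM in replicates 2, 3 and 4. All 3 libraries on 0.5 kPa lay above all 6 others. Set against 25 kPa, the log2 fold change on 0.5 kPa was 0.70 (standard error 0.20, adjusted p = 0.054 in edgeR). Set against 4 kPa, it came to 0.67 (standard error 0.20, adjusted p = 0.12 in edgeR). The 4 and 25 kPa gels differed by 0.03 (standard error 0.21, adjusted p = 0.96 in edgeR). Over 21 alternatives, the adjusted p for 0.5 against 25 kPa ranged from 0.0047 to 0.28 in edgeR, DESeq2 and limma, and 7 of them were below the threshold. The log2 fold change ranged from 0.52 to 0.86. Leaving out the replicate 3 library of 0.5 or of 4 kPa gave adjusted p = 0.032 and 0.029 in edgeR. No other single library left out gave a call. With both replicate 3 libraries left out, a choice made after seeing the data, it was 0.0059 in edgeR. Replicate 3 was the lowest 0.5 kPa library of this gene and the highest of 4 kPa.

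RN7SL2, an RNA of the signal recognition particle that ends without a poly(A) tail, moved in the same direction. It stood at 9.68, 8.72 and 6.99 CPM on 0.5 kPa, 4.40, 4.32 and 4.20 CPM on 4 kPa, and 2.97, 3.66 and 3.01 CPM on 25 kPa. In both RNAs replicate 1 was the highest and replicate 3 the lowest library of 0.5 kPa. That order is not particular to them. HIST1H1C (10.2, 8.16 and 6.18 CPM) and HIST2H2BE (3.55, 3.04 and 2.63 CPM) had it too, and HIST1H2BK (9.78, 10.2 and 10.3 CPM) had the opposite. RN7SL2 was higher on 0.5 than on 25 kPa (log2 fold change 1.40, standard error 0.15, adjusted p = 1.5e-04 in edgeR) and than on 4 kPa (0.97, standard error 0.15, adjusted p = 0.0030 in edgeR). On transcript sums the call against 4 kPa was lost (0.88, adjusted p = 0.21 in edgeR). Only 2 of the 24 listed RNAs without a poly(A) tail had enough counts for the test, and RN7SL2 was the one called. Mitochondrial and MALAT1 shares, given above, were also highest on 0.5 kPa. The part of any of these in the level of HIST1H4C was not tested.

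**Figure D2:**
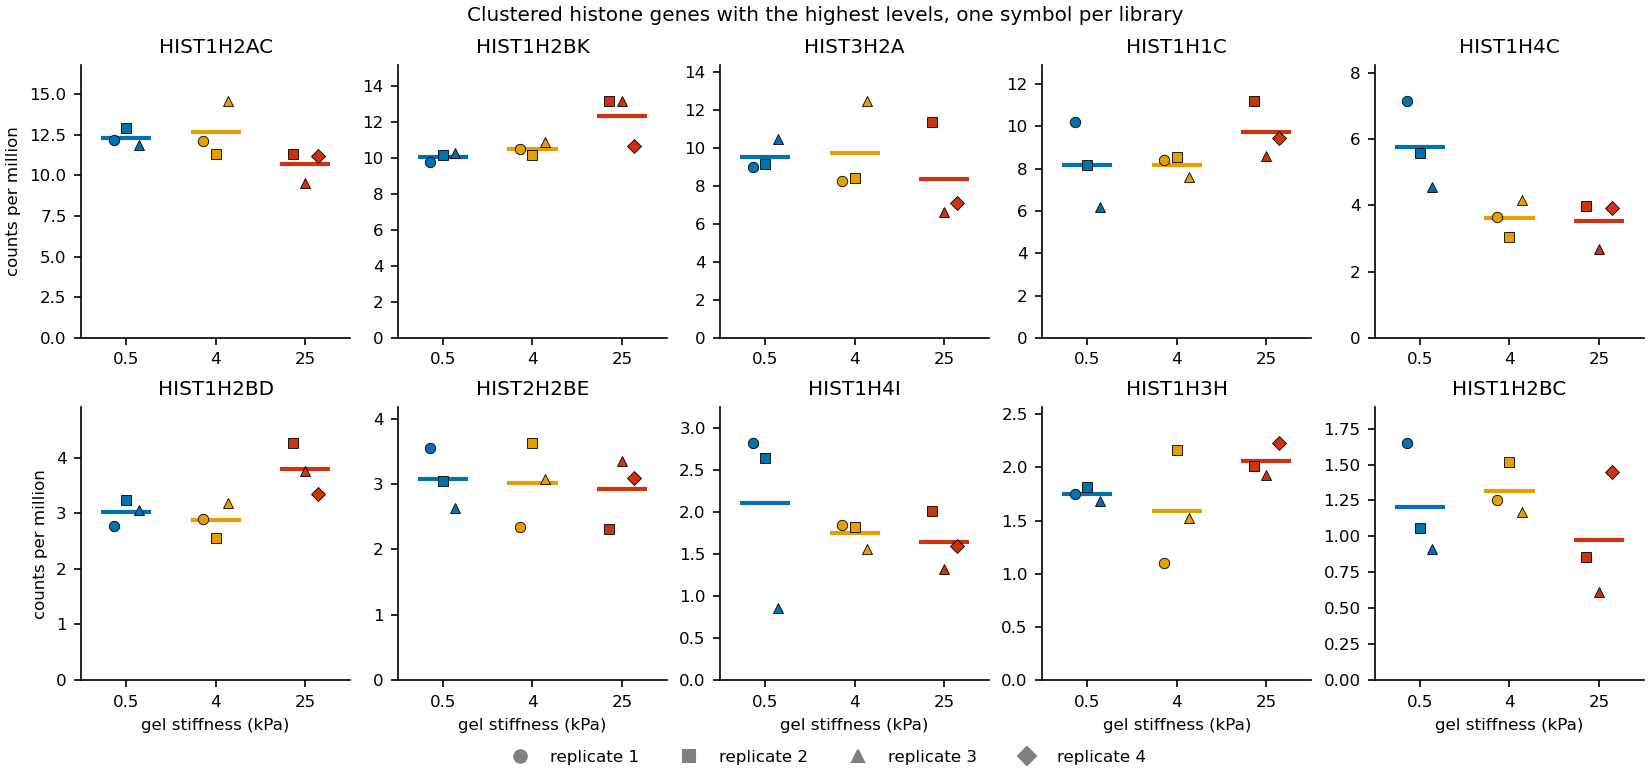
CPM (y axis, from 0) of the 10 tested members with the highest mean FPKM, by gel stiffness in kPa (x axis), with 1 symbol per library, shaped by replicate number, and a line at each gel's mean. HIST1H4C separates the 0.5 kPa libraries (4.55 to 7.15 CPM) from the others (2.69 to 4.15 CPM), and HIST1H4I has 1 library on 0.5 kPa, replicate 3, at 0.862 CPM.

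The plot of the 10 highest members shows how the other genes lay. HIST1H2BK had 9.78, 10.2 and 10.3 CPM on 0.5 kPa, 10.5, 10.2 and 10.9 CPM on 4 kPa, and 13.2, 13.2 and 10.7 CPM on 25 kPa. Replicate 4 on 25 kPa lay within the range of 4 kPa. The log2 fold change for 0.5 against 25 kPa was -0.29 (standard error 0.11, adjusted p = 0.12 in edgeR). HIST1H2BD, a second H2B gene, had 2.77, 3.24 and 3.07 CPM on 0.5 kPa, 2.90, 2.55 and 3.18 CPM on 4 kPa and 4.27, 3.76 and 3.35 CPM on 25 kPa. Its 25 kPa libraries lay above the other 6. The log2 fold change was -0.32 (standard error 0.16, adjusted p = 0.26 in edgeR) for 0.5 against 25 kPa and -0.40 (standard error 0.16, adjusted p = 0.28 in edgeR) for 4 against 25 kPa.

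HIST1H2AC, the H2A gene with the most counts, had 12.2, 12.9 and 11.9 CPM on 0.5 kPa, 12.1, 11.3 and 14.6 CPM on 4 kPa and 11.3, 9.55 and 11.2 CPM on 25 kPa. The lowest 0.5 kPa library stood above the highest of 25 kPa, and the fitted log2 difference was 0.21 with a standard error of 0.12 (adjusted p = 0.30 in edgeR). HIST3H2A, from the small cluster on chromosome 1, had 9.0, 9.17 and 10.5 CPM on 0.5 kPa, 8.25, 8.45 and 12.5 CPM on 4 kPa and 11.4, 6.61 and 7.13 CPM on 25 kPa. Its gels overlapped, and replicate 3 on 4 kPa and replicate 2 on 25 kPa stood above the others of their gels. HIST1H1C had 10.2, 8.16 and 6.18 CPM on 0.5 kPa, 8.40, 8.55 and 7.58 CPM on 4 kPa and 11.2, 8.59 and 9.45 CPM on 25 kPa. Here the 0.5 kPa gel overlapped both others, while every 25 kPa library lay above those of 4 kPa (log2 fold change -0.25 for 4 against 25 kPa, standard error 0.16, adjusted p = 0.52 in edgeR).

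HIST1H4I, a second H4 gene, had 2.82, 2.64 and 0.862 CPM on 0.5 kPa (58, 52 and 18 counts), 1.85, 1.82 and 1.56 CPM on 4 kPa and 2.01, 1.32 and 1.60 CPM on 25 kPa. Replicate 3 on 0.5 kPa was the lowest of the 9 and the other 2 of that gel the highest. The log2 fold change for 0.5 against 25 kPa was 0.35 (standard error 0.34, adjusted p = 0.58 in edgeR). Without the replicate 3 libraries of 0.5 and 4 kPa, a choice made after seeing the data, it was 0.74 (adjusted p = 0.043 in edgeR). On transcript sums it was reversed, at -0.62 (adjusted p = 0.77 in edgeR). HIST2H2BE, HIST1H3H and HIST1H2BC had log2 fold changes of 0.07, -0.23 and 0.31 for 0.5 against 25 kPa, and none of them passed the test.

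**Figure D3:**
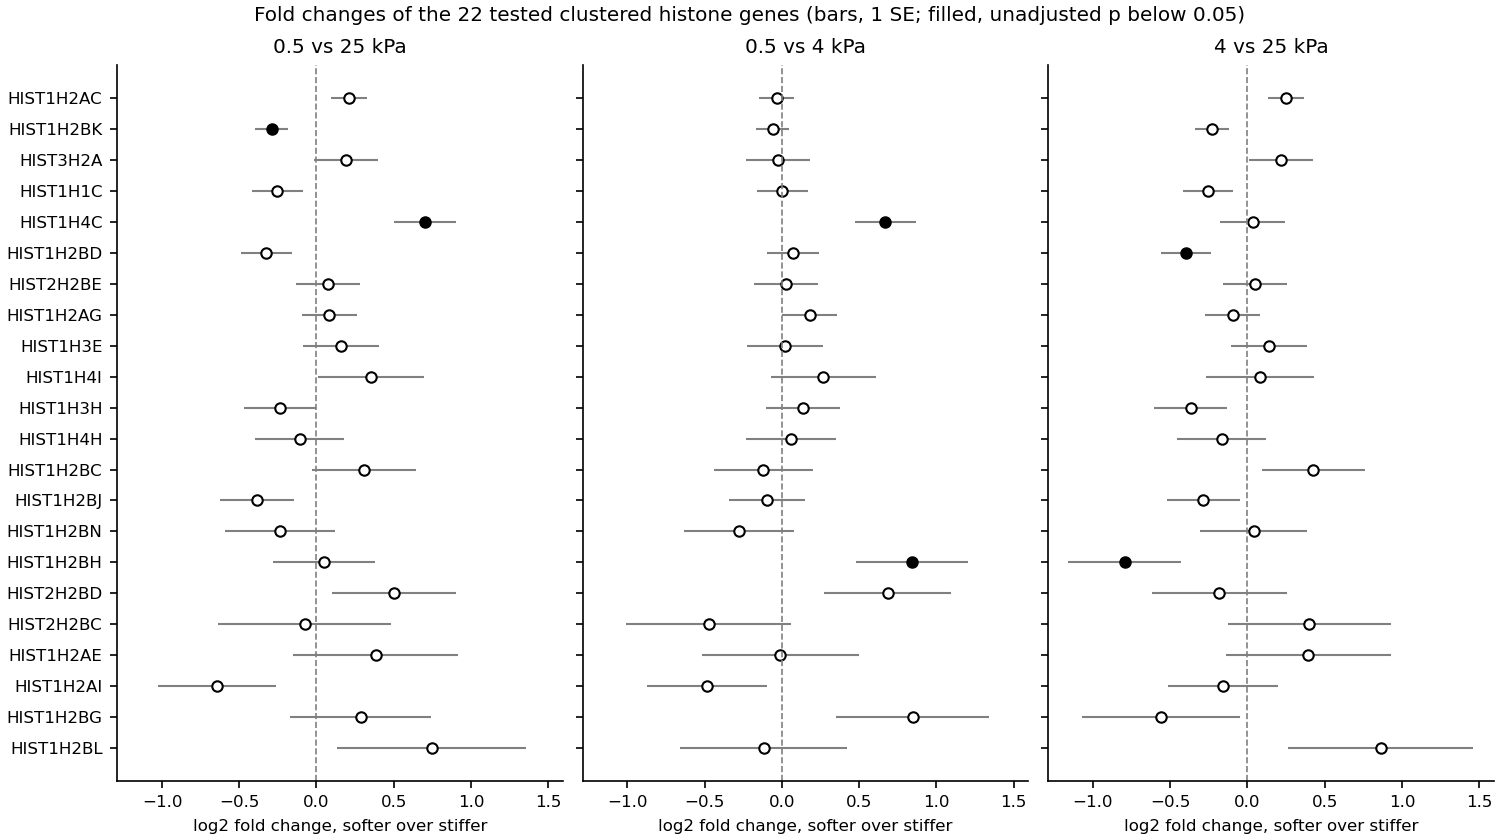
Log2 fold changes (x axis, softer over stiffer gel) of the 22 tested members in the 3 comparisons, with bars of 1 standard error and filled points for an unadjusted p below 0.05. The filled points are 2 in each panel, and HIST1H4C stands at 0.70 for 0.5 against 25 kPa. Over all 16335 genes tested, 3733 had such a p for 0.5 against 25 kPa, 2239 for 0.5 against 4 kPa and 2422 for 4 against 25 kPa.

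Between 0.5 and 4 kPa, 0 of 22 members passed the test in edgeR, against 2.05% of all genes tested, with 2 at an unadjusted p below 0.05 and 0 in DESeq2 and in limma on FPKM. Those 2 were HIST1H4C and HIST1H2BH, while 2239 of all 16335 genes tested had an unadjusted p below 0.05. HIST1H2BH, an H2B gene with few counts, had 14, 12 and 14 counts on 0.5 kPa, 7, 6 and 9 on 4 kPa and 13, 16 and 9 on 25 kPa. Its log2 fold change for 0.5 against 4 kPa was 0.84 (standard error 0.36, adjusted p = 0.32 in edgeR). Over the 22 members, 12 lay above 0 and 10 below, with a median of 0.01, as over all genes tested.

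Between 4 and 25 kPa, 0 of 22 members passed in edgeR, against 0.9% of all genes tested, with 2 at an unadjusted p below 0.05 and 0 in DESeq2 and in limma on FPKM. The 2 were HIST1H2BH (log2 fold change -0.80, standard error 0.36, adjusted p = 0.33 in edgeR) and HIST1H2BD. Over all 16335 genes tested, 2422 had an unadjusted p below 0.05. The members split evenly, 11 above and 11 below 0, with a median of -0.03 against -0.01 for all genes. The plot of fold changes by comparison shows members on both sides of 0 in all 3 panels.

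Libraries without overlap were read the same way. Between 0.5 and 25 kPa the libraries of 6 of the 22 members did not overlap, 2 higher and 4 lower on 0.5 kPa, against 30.3% of all genes tested. Between 0.5 and 4 kPa it was 4, against 18.4%, and between 4 and 25 kPa 3, against 20.1%. The shares of members lie near those of all genes.

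Summed over all 52 members, the level was 66.3 to 77.9 CPM on 0.5 kPa, 67.8 to 74.2 CPM on 4 kPa and 69.9 to 78.3 CPM on 25 kPa, so the gels overlapped. The classes differed in how their libraries lay. H4 genes summed to 13.2, 12.3 and 7.57 CPM on 0.5 kPa, with replicate 3 low, against 7.76 to 8.35 CPM on 4 kPa and 7.57 to 9.60 CPM on 25 kPa. Without HIST1H4C the H4 sum was 3.02 to 6.69 CPM on 0.5 kPa and 3.68 to 5.63 CPM on 25 kPa. H2B genes summed to 22.2 to 23.5 CPM on 0.5 kPa, at most 23.4 CPM on 4 kPa and 24.4 to 27.0 CPM on 25 kPa, where the 25 kPa libraries lay above the other 6. H2A genes summed to 25.5 to 25.8 CPM on 0.5 kPa, 23.5 to 30.4 CPM on 4 kPa and 21.0 to 25.8 CPM on 25 kPa. H1 genes summed to 6.61 to 10.9 CPM on 0.5 kPa, 7.87 to 9.13 CPM on 4 kPa and 9.45 to 12.2 CPM on 25 kPa, without overlap between the last pair. H3 sums, 4.17 to 5.77 CPM, overlapped between all gels. These sums are descriptions and carry no test, and a few genes of high count make up most of each.

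**Figure D4:**
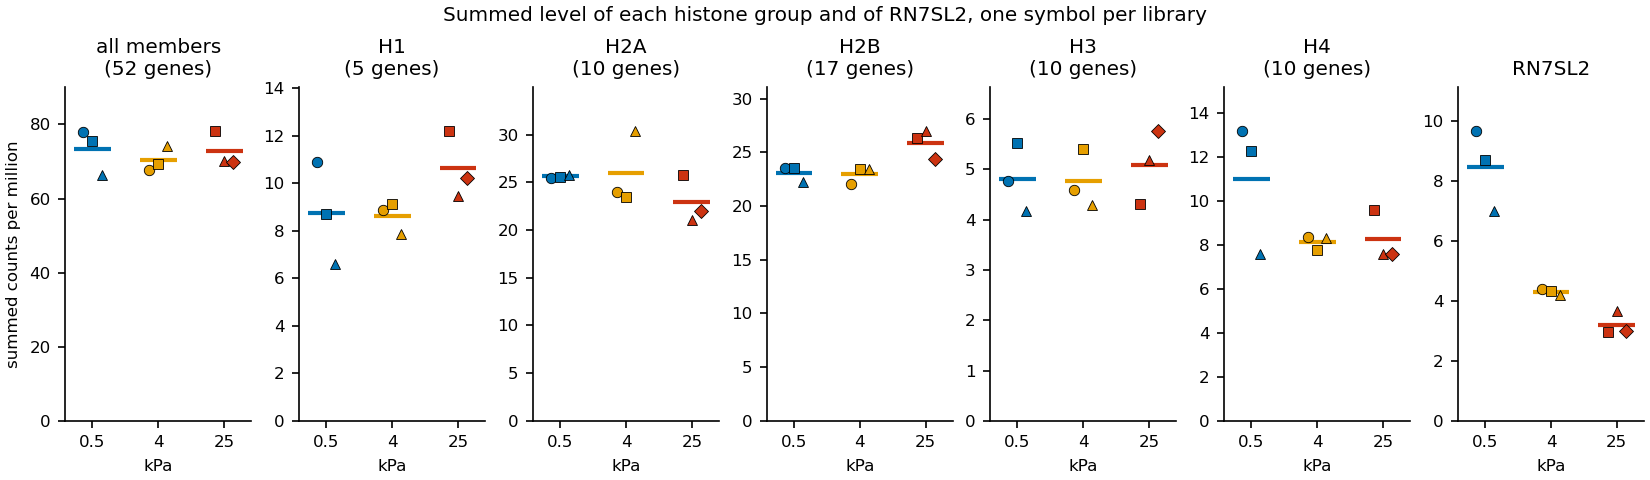
Summed CPM (y axes, each from 0) of all 52 members, of each histone class and of RN7SL2, by gel stiffness in kPa, with 1 symbol per library and a line at each gel's mean. The H2B sum is 24.4 to 27.0 CPM on 25 kPa and at most 23.5 CPM on the softer gels, while the H4 sum on 0.5 kPa spans 7.57 to 13.2 CPM.

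The genes that serve histone mRNA were looked at through lists. For scale, an unadjusted p below 0.05 was found for 3733 of all 16335 genes tested between 0.5 and 25 kPa. For 0.5 against 4 kPa it was 2239, and for 4 against 25 kPa 2422. Of 15 genes for stem-loop processing and histone transcription, 0 passed between 0.5 and 25 kPa in edgeR (4 at an unadjusted p below 0.05), with a median log2 fold change of -0.12. SLBP stood at 79.8, 80.8 and 69.1 CPM on 0.5 kPa, 79.8, 80.7 and 77.2 CPM on 4 kPa and 92.3, 83.9 and 89.6 CPM on 25 kPa. Its 25 kPa libraries lay above the other 6 (log2 fold change -0.21 for 0.5 against 25 kPa, standard error 0.08, adjusted p = 0.12 in edgeR). NPAT had 36.1 to 41.7 CPM on 0.5 kPa, 27.6 to 38.0 CPM on 4 kPa and 34.6 to 45.9 CPM on 25 kPa, which overlapped. CTIF, which starts translation of capped mRNAs and works with SLBP on histone mRNAs, was lower on 0.5 than on 4 kPa (log2 fold change -0.37, standard error 0.07, adjusted p = 0.016 in edgeR). It was the 1 call of the list in that comparison, and it was called in 16 of 21 alternatives. It was not called without 0.5 kPa replicate 1 or 2 or 4 kPa replicate 2, with a replicate block (adjusted p = 0.087 in edgeR) or on transcript sums (log2 fold change -0.32, adjusted p = 0.98 in edgeR). Between 4 and 25 kPa 0 of the 15 passed in edgeR (5 at an unadjusted p below 0.05).

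Of 8 genes for decay of histone mRNA, 0 passed in any of the 3 comparisons in edgeR (0, 0 and 3 at an unadjusted p below 0.05 for 0.5 against 25, 0.5 against 4 and 4 against 25 kPa). Of 12 listed genes for histone variants, 0 passed in the same comparisons (1 at an unadjusted p below 0.05 in each). H2AFZ, for the variant H2A.Z, had 267 ± 20 CPM on the 0.5 kPa gel, 262 ± 14 on that of 4 kPa and 316 ± 16 on that of 25 kPa (SD, n = 3). H3F3B, for the variant H3.3, had 805 ± 31, 863 ± 31 and 848 ± 33 CPM. Neither passed the test. The 12 variant genes together summed to 2010 to 2420 CPM per library, in these poly(A)-selected libraries, against 66.3 to 78.3 CPM for the 52 clustered genes.

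Of 15 histone chaperones, which hand histones to DNA, 1 was higher on 0.5 kPa in each of the comparisons with 0.5 kPa and 0 passed between 4 and 25 kPa in edgeR (2 at an unadjusted p below 0.05). ATRX, which with DAXX places H3.3, stood at 206 ± 4.8 CPM in the 0.5 kPa libraries, at 149 ± 11 in those of 4 kPa and at 167 ± 16 in those of 25 kPa (SD, n = 3). The log2 fold change was 0.46 against 4 kPa (standard error 0.08, adjusted p = 0.0095 in edgeR) and 0.30 against 25 kPa (standard error 0.08, adjusted p = 0.047 in edgeR). Without 4 kPa replicate 2 neither was called. The call against 25 kPa was also lost without any single library of 0.5 or 25 kPa, with a replicate block and in all 3 limma fits on FPKM. On transcript sums neither was called, with log2 fold changes of 0.26 against 4 kPa (adjusted p = 0.77 in edgeR) and 0.09 against 25 kPa (adjusted p = 0.88 in edgeR). With replicate 3 removed from both softer gels, 2 chaperones were higher and 1 lower on 0.5 than on 25 kPa. Over all 16494 genes tested in that fit, 944 were higher and 992 lower.

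Genes of DNA replication and S phase, with which the clustered genes are switched on, gave 3 of 25 lower on 0.5 than on 25 kPa and 0 higher, with a median log2 fold change of -0.19 and all 25 below 0. The 3 were CDC45, of the replicative helicase (log2 fold change -0.40, standard error 0.10, adjusted p = 0.030 in edgeR), RFC3, of the clamp loader (-0.34, standard error 0.09, adjusted p = 0.041 in edgeR), and CCNA2, cyclin A2 (-0.35, standard error 0.10, adjusted p = 0.042 in edgeR). Leaving out 0.5 kPa replicate 2 or 3, 4 kPa replicate 2 or any 1 library of 25 kPa left a count of 0. Leaving out 0.5 kPa replicate 1 left 1 and leaving out 4 kPa replicate 3 gave 8. With replicate 3 removed from both softer gels the count was 4. None of the 3 genes was called with a replicate block, on transcript sums or in the limma fits on FPKM. Under upper-quartile scaling, or with at least 10 counts asked of every library, CDC45 was called and RFC3 and CCNA2 were not. Of 21 alternatives CDC45 was called in 10 and each of the others in 7, all with log2 fold changes below 0 (-0.48 to -0.26). The 25 genes summed to 2270, 2260 and 1790 CPM on 0.5 kPa, 2270, 2330 and 1900 CPM on 4 kPa and 2440, 2390 and 2460 CPM on 25 kPa. The low libraries were the replicate 3 libraries of 0.5 and 4 kPa. Between 0.5 and 4 kPa 0 passed in edgeR (1 at an unadjusted p below 0.05), and between 4 and 25 kPa 0 passed (5 at an unadjusted p below 0.05). The 5 clustered genes with well known poly(A) forms (HIST1H1C, HIST1H2AC, HIST1H2BD, HIST1H2BK and HIST2H2BE) had a median log2 fold change of -0.25 for 0.5 against 25 kPa, and 0 of 5 passed in edgeR (1 at an unadjusted p below 0.05).

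Several clustered genes are near-copies, and reads that fit more than 1 copy may be lost or split in counting. In GENCODE v29, 18 members share at least one 100-base window of their transcript with another gene, and 8 share more than 50% of them. All windows of HIST2H2AA3 are found in another gene, mainly its copy HIST2H2AA4. The members that lie in such pairs are therefore uncertain in the gene table, as are members that overlap other genes, since no source used here gives the strand setting of the counting.

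The deposited transcript table, which estimates counts per transcript, gave other totals for some members. Over 16283 tested genes it gave a median of 3.40 times the gene count (5 to 95% of genes, 0.787 to 5.67 times). HIST2H2AA3 had 14 counts in the gene table and 3139 in the transcript table. HIST2H4A had 10 and 1403, and its copy HIST2H4B 19 and 1060. HIST1H4J had 27 and 312, and HIST1H4K 51 and 328. HIST1H4I went the other way, with 333 and 146. In all, 7 members lay above the 95% point. HIST1H2AJ, with 80.9% of its windows shared, had a ratio of 3.72. HIST2H2BD, with 23.3%, had 6.84. Its GENCODE v29 model has other coordinates than the counted gene, with transcripts up to 3612 bases against 493 behind its FPKM. That share therefore does not describe the counted gene. Why the tables differ was not tested.

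**Figure D5:**
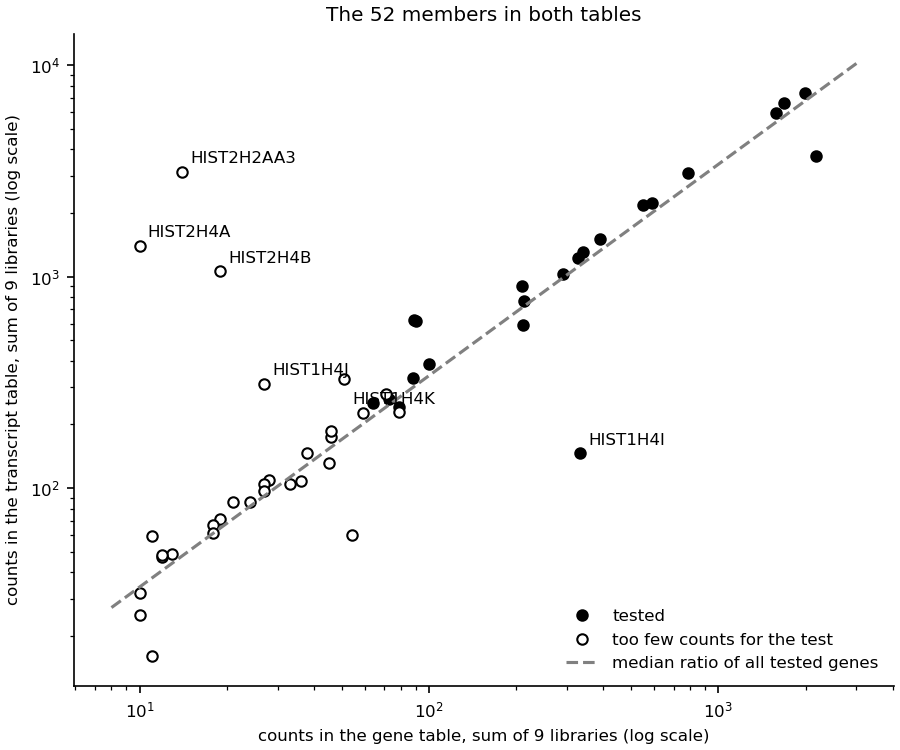
Counts of each of the 52 members summed over 9 libraries in the gene table (x axis) and the transcript table (y axis), both log scales, with filled points for tested members and a dashed line at the median ratio of all tested genes (3.40). HIST2H2AA3, HIST2H4A and HIST2H4B lie far above the line, at 3139, 1403 and 1060 transcript-table counts.

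The plot of both tables shows that the 3 members farthest above the line are HIST2 genes with a near-identical copy. In the transcript table HIST2H2AA3 had 360 ± 45 counts in 0.5 kPa libraries, 360 ± 19 in those of 4 kPa and 327 ± 8.1 in those of 25 kPa (SD, n = 3), with a log2 fold change of 0.11 for 0.5 against 25 kPa (standard error 0.13, adjusted p = 0.79 in edgeR). HIST2H2AA3 and HIST2H2AA4 together had 631 to 829 counts per library there, against 1 to 5 in the gene table. HIST2H4A and HIST2H4B together had 230 to 345, against 0 to 7. HIST1H4J and HIST1H4K together had 43 to 138 on 0.5 kPa and 53 to 70 on 25 kPa. None of these 5 genes passed the test on the summed transcript counts in any comparison (edgeR adjusted p = 0.58 to 0.99). HIST1H4C had a log2 fold change of 0.70 for 0.5 against 25 kPa there (adjusted p = 0.28 in edgeR).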

How the data were processed

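RNA of SKOV-3 cells on 0.5, 4 and 25 kPa hydrogels was sequenced in 9 libraries. The labels name a NEBNext Ultra kit with poly(A) enrichment and the study's methods a TruSeq kit. FastQC 0.11.5, HISAT2 2.1.0, bcl2fastq and hg38 are named in the submitters' processing notes. No source used here gives the counting program, the strand setting or the annotation. The deposited tables hold counts per gene as whole numbers, FPKM for the same genes, and estimated counts per transcript, which sum to 3.57 times the gene counts and were used summed per gene in an alternative. Sample titles write 0.5 kPa as 1_2kPa, and 3 further columns matched no sample and were not used.

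After filterByExpr, which kept 16335 genes, edgeR 4.0.16 (R 4.3.3) applied TMM to the counts and fitted all 9 libraries together with robust quasi-likelihood. Benjamini-Hochberg adjustment ran over those genes, per comparison. Alternatives were other scalings and filters, DESeq2 1.42.0, limma 3.58.1 on log2(FPKM + 1 or 0.1), the transcript sums, a replicate block, the 6 libraries compared and each library left out. Removing replicate 3 from both softer gels was chosen after seeing the data. The statistics were tested on simulated data, with known changes on 0.5 kPa in genes near the level of most tested members. For 0.5 against 25 kPa, 25.4% of 1.5-fold, 65.7% of 2-fold and 95.5% of 4-fold changes were recovered. There were 11 false calls among 16084 genes. Named members are those called, the 10 of highest FPKM and, per comparison, the 5 of at least 5 CPM with the largest fold change; only 4 members reached 5 CPM, so all 4 were taken without ranking. SLBP, NPAT and up to 4 called genes per list are also named. Any other gene with values was named after its values were seen. Members and lists were chosen with earlier results of these data known. Promoter and transcript sequences are from RefSeq and GENCODE v29. Figures used Python 3.11.15, pandas 2.3.3 and matplotlib 3.10.9.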

Additional observations from a re-analysis of the deposited data

Results flagged for a closer look

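Some members with too few counts in the gene table for the test had many more in the transcript table. The main comparisons do not use that table and an alternative does. HIST2H2AA3 had 3139 counts there against 14. HIST2H4A had 1403 against 10 and HIST2H4B 1060 against 19. HIST1H4K had 328 against 51 and HIST1H4J 312 against 27. No samples without these genes exist to set against them. These genes were listed because their ratio of transcript to gene counts lay above the 95% point of tested genes (5.67 times). High totals therefore follow from that choice.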

How the results depend on the processing

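The number of members called was 0 in each comparison. For 0.5 against 25 kPa it was 1 under upper-quartile scaling, without a filter, with only the 6 libraries compared and in DESeq2 (HIST1H4C each time), 2 without the replicate 3 libraries of 0.5 and 4 kPa, and 0 to 1 with single libraries left out. For 0.5 against 4 kPa it was 1 without a filter and 1 without the replicate 3 libraries of 0.5 and 4 kPa, and 0 to 0 with single libraries left out. For 4 against 25 kPa it was 0 in all 21 alternatives. At an unadjusted p below 0.05 it was 2, 2 and 2, against 3733, 2239 and 2422 of all 16335 genes tested. The fit with a replicate block called 0, 0 and 0, and same-numbered libraries did not deviate together (correlations -0.231 to 0.141), so the numbers do not pair them. Calls over all genes changed as well. For 0.5 against 25 kPa, 500 were higher and 592 lower of 16335 in the main fit. Without both replicate 3 libraries it was 944 and 992 of 16494. Single libraries left out gave 173 to 883 higher and 194 to 1083 lower. For 0.5 against 4 kPa, 151 and 184 became 461 and 434 without both replicate 3 libraries.

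Of 630 log2 fold changes of named members under alternatives, 581 kept their direction and side of the threshold, 10 passed the threshold in addition and 39 changed sign, none of them past the threshold. HIST1H4C passed for 0.5 against 25 kPa at adjusted p = 0.047 with upper-quartile scaling, 0.0047 without a filter, 0.042 with 6 libraries and 0.029 in DESeq2. For 0.5 against 4 kPa it passed at 0.014 without a filter and 0.014 without both replicate 3 libraries. The cause was not tested.

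Between 0.5 and 4 kPa, HIST1H1C (0.0015) was -0.0032 with RLE size factors, -0.0030 without a filter, -0.0184 with a replicate block, -0.0140 on transcript sums, -0.0024 with 6 libraries, -0.0288 and -0.0326 in limma on FPKM with pseudocounts of 1 and 0.1 (-0.0288 at a mean FPKM of at least 1) and -0.0031 in DESeq2. On transcript sums HIST1H2BC was 0.0030, HIST2H2BE -0.0008 and HIST1H4I -0.52 in that comparison, and HIST1H4I was -0.62 for 0.5 against 25 kPa and -0.0909 for 4 against 25 kPa. HIST1H4I was -0.0746 with a replicate block for 4 against 25 kPa. Without the replicate 3 libraries of 0.5 and 4 kPa, HIST1H2AC was 0.10 and HIST3H2A 0.12 for 0.5 against 4 kPa, and HIST1H4C -0.0700 for 4 against 25 kPa. With single libraries left out, the ranges for 0.5 against 4 kPa were -0.19 to 0.17 (HIST1H1C), -0.12 to 0.0785 (HIST1H2AC), -0.41 to 0.0469 (HIST1H2BC), -0.0134 to 0.15 (HIST1H2BD), -0.0759 to 0.41 (HIST1H3H), -0.0062 to 0.64 (HIST1H4I), -0.13 to 0.17 (HIST2H2BE) and -0.14 to 0.20 (HIST3H2A). For 4 against 25 kPa they were -0.11 to 0.16 (HIST1H4C), -0.0348 to 0.25 (HIST1H4I), -0.0957 to 0.21 (HIST2H2BE) and -0.0064 to 0.50 (HIST3H2A), and for 0.5 against 25 kPa -0.0714 to 0.19 (HIST2H2BE). Low counts limit most members: 30 of 52 were not tested.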
